A study of Homo sapiens with 3 samples.

Results

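The genes described here are the zinc finger genes of human chromosome 19 that carry the ZNF name. They were taken from a table of 44591 genes measured by RNA-seq in the human renal carcinoma line Caki-1, and a member had to be protein-coding, to be named ZNF followed by a number and at most 1 letter, and to lie on chromosome 19. This gave 243 genes of 19233 protein-coding genes. The cells had received a control siRNA, si-Control, or an siRNA that targets RBCK1, either si-RBCK1 #1 or si-RBCK1 #2 (labelled si-HOIL-1#1 and si-HOIL-1#2, after the other name of the gene), and RNA was collected 48 h later. Each of the 3 conditions had 1 library, so the differences given here have no replicates behind them and no p-value was computed. No average was taken over the siRNAs, which are separate reagents. RBCK1 is a component of the linear ubiquitin chain assembly complex, and the comparison asks how its depletion changes the transcripts of these cells.

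Most of these genes code for proteins with a row of C2H2 zinc fingers, each of which folds around a zinc ion and reads a few bases of DNA. Many also carry a KRAB domain, which recruits the co-repressor TRIM28 (KAP1) and, through it, the histone methyltransferase SETDB1, so that H3K9 methylation is laid down on target sequences such as transposable elements. The genes arose by repeated tandem duplication and still stand side by side on chromosome 19, where related copies share long stretches of coding sequence and where many are expressed at low levels in most tissues.

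The finger repeat that names the family is shown by the coding sequence of 1 finger from each of 4 members. The capitals mark the codons of the 2 cysteines and the 2 histidines that hold zinc, and each unit is 84 bases (28 codons) long, taken from the middle of the finger array in the longest GENCODE v29 transcript.
ZNF146: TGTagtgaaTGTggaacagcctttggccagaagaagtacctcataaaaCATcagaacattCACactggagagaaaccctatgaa
ZNF823: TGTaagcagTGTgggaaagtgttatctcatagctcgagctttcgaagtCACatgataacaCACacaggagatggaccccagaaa
ZNF526: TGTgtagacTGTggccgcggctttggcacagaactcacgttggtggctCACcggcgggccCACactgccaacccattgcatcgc
ZNF83: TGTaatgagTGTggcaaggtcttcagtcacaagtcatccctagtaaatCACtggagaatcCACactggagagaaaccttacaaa
In 242 of the 243 members a transcript was found in GENCODE v29 (1 member was not matched), and the longest open reading frame held between 1 and 36 such fingers, with a median of 12. A KRAB pattern was found in 207 of them (85.5%) and not in 35. Of the members, 42 had more than 10% of their coding 50-base words in another gene, which limits how far reads can be told apart, and 114 members shared none.

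The libraries were scaled by the authors on 36926834 reads (si-Control), 40442939 reads (si-RBCK1 #1) and 36344428 reads (si-RBCK1 #2). Of the markers of renal epithelium, PAX8, KRT8, KRT18 and VIM were present in each library, though their levels differed from si-Control, with log2(RPKM + 1) ratios (si-RBCK1 #1, si-RBCK1 #2) of 1.38 and 1.84 for KRT8, 1.19 and 1.07 for VIM, 0.57 and 0.84 for KRT18 and -0.59 and -0.22 for PAX8. Their part in the results below was not tested. PAX2 and CA9 stood at or near 0 and LHX1 had a mean under 1 RPKM (reads scaled by gene length and library size). Markers of blood and endothelial cells (PTPRC, CD3E, PECAM1 and CDH5) stood at or near 0, the hepatocyte gene ALB was at 0.26, 0.38 and 0.29 RPKM in the order si-Control, si-RBCK1 #1, si-RBCK1 #2, and the collagen gene COL1A1 was at 4.68, 3.21 and 4.41 RPKM. The targeted gene, RBCK1, was at 33.3 RPKM in si-Control, 9.97 RPKM in si-RBCK1 #1 and 12.3 RPKM in si-RBCK1 #2, that is, 29.9% and 36.8% of si-Control.

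The chromosome 19 ZNF genes were mostly expressed at low levels in these cells. The limit used, a mean level of 1 RPKM across the libraries, was reached by 159 of the 243 members (65.4%), against 56.0% of all protein-coding genes. Of those 159, 149 (93.7%) lay below 8 RPKM, as did 41.9% of protein-coding genes that passed, and the median of their mean levels was 2.26 RPKM. The median member had 284 reads in si-Control, and the least covered had 26. The other 84 members had a median of 0.19 RPKM, 31 members lay under 0.1 RPKM and 2 were listed at 0. Summed over these 84 genes, the level was 26.7 RPKM in si-Control, 29.2 RPKM in si-RBCK1 #1 and 28.9 RPKM in si-RBCK1 #2, and none of them differed by 1.5-fold on the scale used below. The members nearest to the limit were ZNF431 (mean 1.01 RPKM) and ZNF569 (mean 1.015 RPKM) inside it and ZNF558 (mean 0.996 RPKM) and ZNF565 (mean 0.974 RPKM) outside it.

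As a group, the members differed little from si-Control, and slightly more of them were higher than lower. Differences are log2 ratios of a depleted library to the control on log2(RPKM + 1), a scale that makes the differences of low genes smaller than they are. The median over the 159 members was 0.06 in si-RBCK1 #1 and 0.08 in si-RBCK1 #2, beside 0.03 and 0.05 for all 10775 protein-coding genes that passed. With si-RBCK1 #1, 88 of 159 members (55.3%) were higher than in si-Control, and 97 (61.0%) were in si-RBCK1 #2. Since both ratios share the si-Control library, their directions are not independent, and 72 members were higher in both and 46 lower in both. Of all 10775 protein-coding genes, 52.4% were higher in si-RBCK1 #1, 54.6% were higher in si-RBCK1 #2, 4823 were higher in both and 4064 lower in both. With libraries scaled to equal medians or equal totals, the medians of the members remained above 0 (0.05 and 0.02 in si-RBCK1 #1, 0.03 and 0.05 in si-RBCK1 #2). The spread among members was narrower than among all protein-coding genes, with an SD of 0.32 and 0.29 against 0.50 and 0.47. ZNF genes of other chromosomes also had a narrower spread, with an SD of 0.36 and 0.39.

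**Figure D1:**
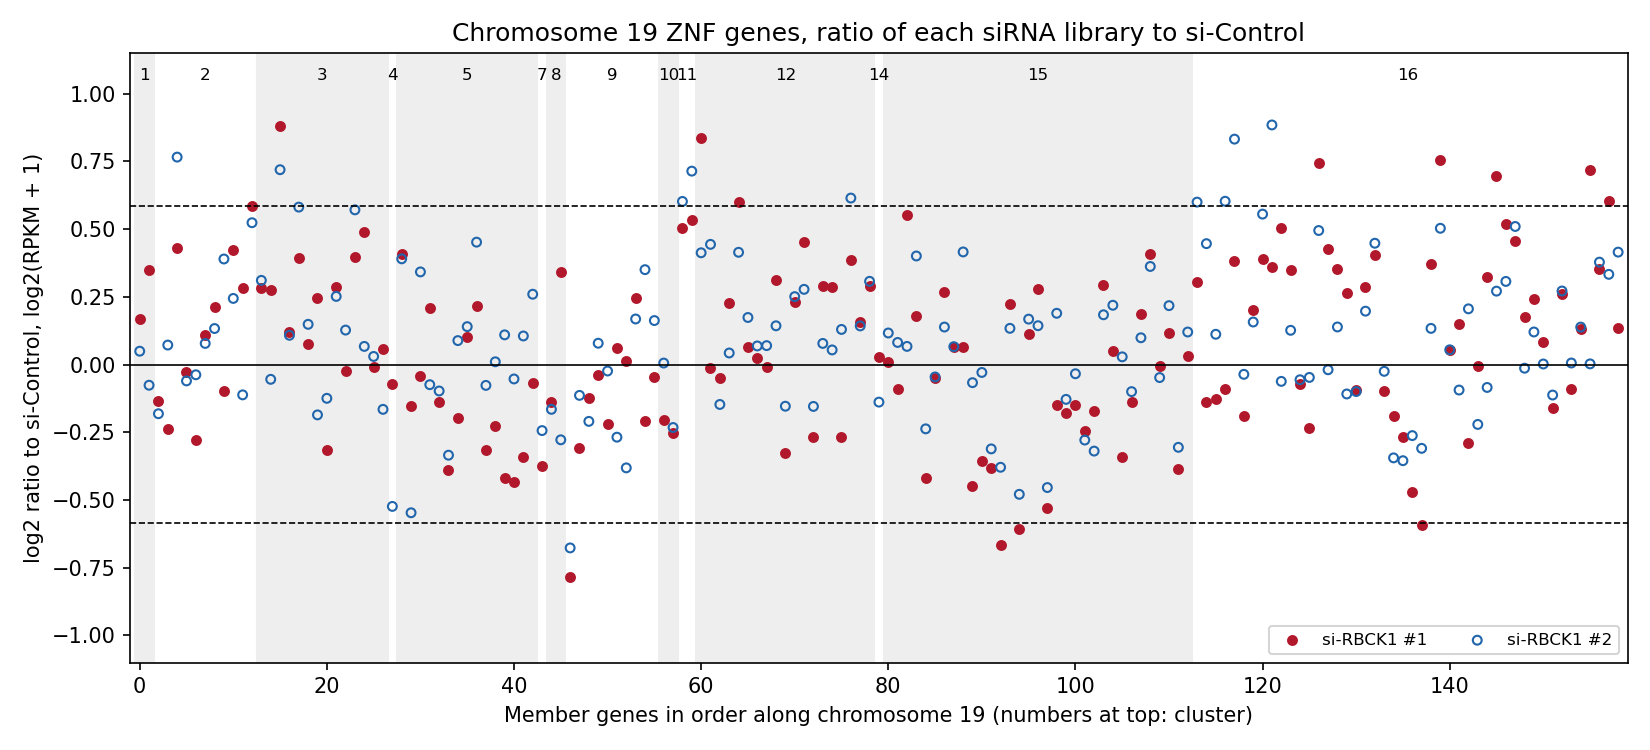
Log2 ratios to si-Control, log2(RPKM + 1) scale, for the 159 members that passed, in their order along chromosome 19, with clusters shaded in turn and numbered at the top. Dashed lines mark 1.5-fold, filled points are si-RBCK1 #1 and open circles are si-RBCK1 #2. Most points lie between the dashed lines, and 1 member lies beyond the lower line in both libraries.

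Few members passed a limit of 1.5-fold. With si-RBCK1 #1, 9 members were at least 1.5-fold higher and 4 were at least 1.5-fold lower, that is, 5.66% and 2.52% of members, while 11.7% and 10.6% of all protein-coding genes passed the same limits. With si-RBCK1 #2, 9 members (5.66%) were higher and 1 (0.629%) was lower, beside 11.1% and 8.38% of protein-coding genes. In both libraries 1 member, ZNF823, was higher and 1, ZNF146, was lower, with backgrounds of 7.59% and 5.89%. At 2-fold on the log2(RPKM + 1) scale no member passed in either direction in either library. Of protein-coding genes, 2.42% and 2.62% were higher or lower in si-RBCK1 #1, 2.16% and 1.89% were in si-RBCK1 #2, and 1.36% and 1.25% were in both.

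These counts lean on the pseudocount, because most members are low. With 0.1 RPKM in its place, 24 members (15.1%) were at least 1.5-fold higher in si-RBCK1 #1 and 20 (12.6%) in si-RBCK1 #2, close to the 14.5% and 14.2% of all protein-coding genes. The share of lower members stayed below the background at this setting, with 10 members (6.29%) beside 13.7% of genes for si-RBCK1 #1 and 4 members (2.52%) beside 10.8% for si-RBCK1 #2. Both libraries were higher for 12 members (7.55%; background 9.83%) and lower for 2 members (1.26%; background 7.76%). Among genes of 1 to 8 RPKM the shares at this pseudocount were 16.1% of members and 14% of genes higher in si-RBCK1 #1, 6.04% and 18.5% lower, 12.1% and 15.3% higher in si-RBCK1 #2, and 2.01% and 13.7% lower. In both libraries they were 8.05% and 9.67% higher, and 0.671% and 9.86% lower. The absence of members past 2-fold also rests on the pseudocount of 1 RPKM. With 0.1 RPKM, ZNF823 (log2 ratios 1.27 and 1.06) and ZNF846 (1.11 and 1.01) were over 2-fold higher in both libraries. ZNF610 was over 2-fold lower in si-RBCK1 #1 (-1.06) but not in si-RBCK1 #2 (-0.57). Members past 2-fold were not counted at this setting.

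Set beside genes of similar level, the members stood a little higher. Between 1 and 2 RPKM, the 66 members had medians of 0.00 (si-RBCK1 #1) and 0.05 (si-RBCK1 #2), and the 894 other protein-coding genes had -0.10 and -0.03. Between 2 and 4 RPKM, the 55 members had medians of 0.13 and 0.11, and the other genes had -0.07 and 0.01. Between 4 and 8 RPKM, the 28 members had medians of 0.06 and 0.04, and the other genes had -0.02 and 0.03. The order turned in si-RBCK1 #1 from 8 RPKM up. The 7 members between 8 and 16 RPKM had medians of -0.03 and 0.39 and the others 0.03 and 0.05, and the 3 members at 16 RPKM or more had -0.24 and 0.07 and the others 0.11 and 0.08. Over all 159 members, the median difference from the other genes of the same band was 0.12 in si-RBCK1 #1 and 0.08 in si-RBCK1 #2, and 103 and 97 members stood above their band's median. Within 1 to 8 RPKM, lower genes were the scarcer kind among members: 3 of 149 (2.01%) were at least 1.5-fold lower in si-RBCK1 #1 and 0 in si-RBCK1 #2, where 12.5% and 8.73% of all protein-coding genes of that level were. At least 1.5-fold higher were 9 members (6.04%) and 8 members (5.37%), beside 9.2% of genes of that level in each library. In both libraries 1 member was higher and 0 were lower, where 5.59% and 6.3% of these genes were. The 137 ZNF genes of other chromosomes at this level were near the members in si-RBCK1 #1, with 2.19% lower and 5.11% higher. Their shares were 3.65% lower and 6.57% higher in si-RBCK1 #2, and 1.46% lower and 4.38% higher in both.

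**Figure D2:**
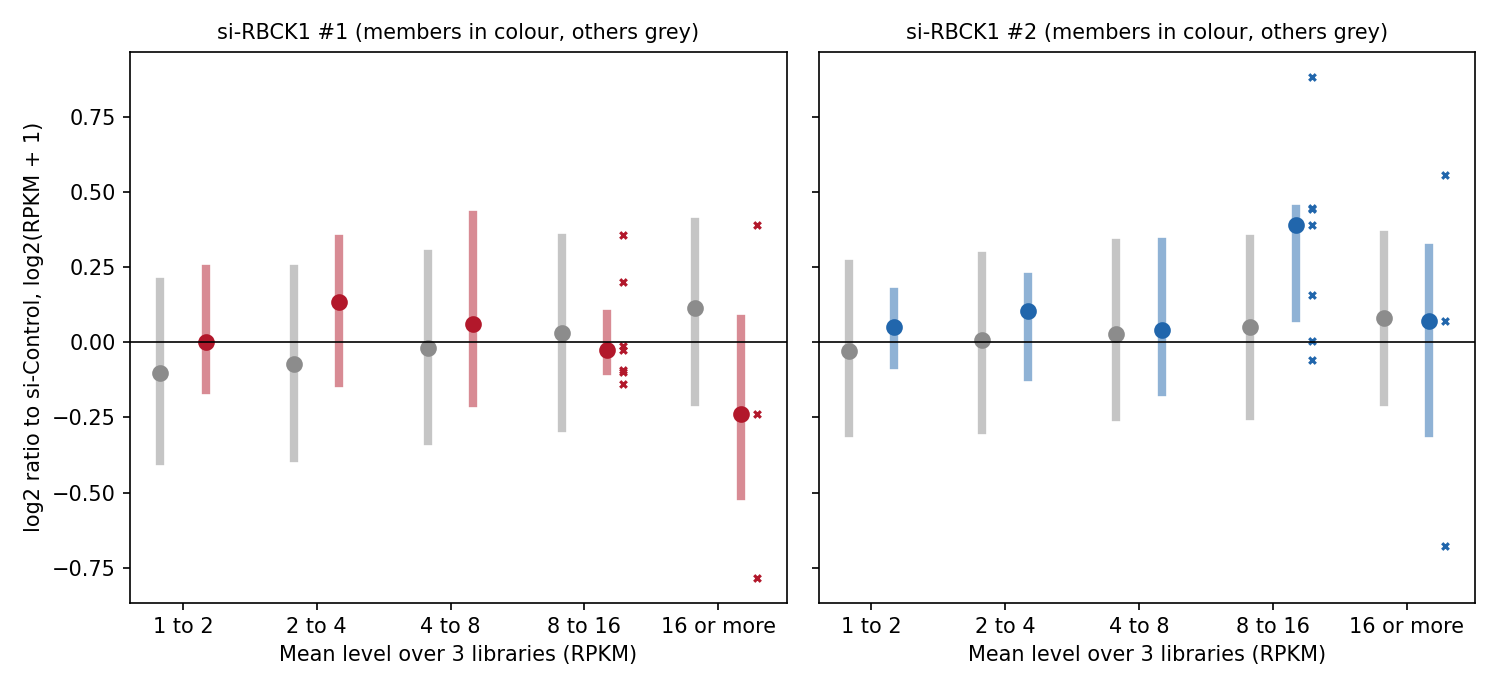
Median (point) and middle 50% (bar) of log2 ratios to si-Control, log2(RPKM + 1) scale, by band of mean level in RPKM, for members (colour) and other protein-coding genes (grey), with crosses for single members in the top 2 bands. In the 3 lower bands the member medians lie above the grey ones in both libraries, and only 7 and 3 members stand in the 2 top bands.

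Counting error sets how much of this can be read gene by gene. Whole reads were recovered for all 159 members, and an exact Clopper-Pearson interval (95%) of the ratio of reads, without the pseudocount, lay above 0 in both libraries for 37 members (23.3%) and below 0 in both for 20 members (12.6%). The same held for 34.9% and 28.9% of all protein-coding genes, and for 26.2% and 29.2% of those of 1 to 8 RPKM. Within that level range the members had fewer reads per gene than the others, a median of 271 against 495 in si-Control, at a similar length of 3731 and 3737.5 nt. These intervals cover counting error only and not differences between cultures. For a gene whose recovered reads fall short of the true ones, the interval is too wide.

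ZNF823 was the member with the largest difference upward in both libraries, ranked by the smaller of its log2 ratios. It codes for a KRAB zinc finger protein with 15 fingers and lies at chr19:11832080-11849824 on the minus strand of hg19. Its level was 1.21 RPKM (110 reads) in si-Control, 3.07 RPKM (305 reads) in si-RBCK1 #1 and 2.64 RPKM (236 reads) in si-RBCK1 #2. Both depleted libraries were above the control, with log2 ratios of 0.88 and 0.72 on the log2(RPKM + 1) scale. On reads alone the log2 ratios were 1.34 (interval 1.02 to 1.67) and 1.12 (interval 0.79 to 1.46).

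The next 4 by this ranking were ZNF526, ZNF846, ZNF574 and ZNF530. ZNF526 went from 4.04 RPKM in si-Control to 6.30 RPKM and 7.27 RPKM (log2 ratios 0.53 and 0.71), and ZNF574 went from 3.17 RPKM to 4.92 RPKM and 5.33 RPKM (0.51 and 0.60). These are the only members of a small cluster of 2 genes, and neither holds a KRAB pattern. ZNF530 was at 0.83 RPKM, 2.09 RPKM and 1.59 RPKM in the order si-Control, si-RBCK1 #1, si-RBCK1 #2, with log2 ratios of 0.76 and 0.50. ZNF846 was at 0.58 RPKM, 1.38 RPKM and 1.28 RPKM, with log2 ratios of 0.59 and 0.52 that rest on 46 reads in the control. For all 5 genes both depleted libraries lay above the control, as the ranking requires, and the counting intervals lay above 0. Since the genes were picked by these ratios, this is no separate support.

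ZNF146 (OZF), which consists almost only of zinc fingers and has been found overexpressed in several carcinomas, was both the highest member and the one with the largest difference downward. It lies at chr19:36705504-36729676 on the plus strand of hg19. Its level was 47.7 RPKM (6798 reads) in si-Control, 27.3 RPKM (4263 reads) in si-RBCK1 #1 and 29.5 RPKM (4133 reads) in si-RBCK1 #2. The depleted libraries were close to each other and below the control, at 57.3% and 61.8% of it. The log2 ratios were -0.78 and -0.68, and with its depth the counting intervals on reads were narrow (-0.86 to -0.75 and -0.75 to -0.64). Its 483-base overlap with the neighbour ZNF565 on the opposite strand concerns a gene of at most 1.24 RPKM.

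The other 4 members lowest in both libraries all hold KRAB patterns. ZNF528 was at 3.13 RPKM, 1.71 RPKM and 1.96 RPKM in the order si-Control, si-RBCK1 #1, si-RBCK1 #2 (log2 ratios -0.61 and -0.48). ZNF83 was at 6.20 RPKM, 3.98 RPKM and 4.25 RPKM (-0.53 and -0.45), while an annotated RNA within its introns on the same strand went the other way, from 1.66 RPKM to 3.46 RPKM and 4.47 RPKM. ZNF610 was at 2.10 RPKM, 0.955 RPKM and 1.39 RPKM (-0.67 and -0.38). ZNF85 was at 1.63 RPKM, 1.01 RPKM and 1.09 RPKM (-0.39 and -0.33). ZNF528, ZNF83 and ZNF610 stand within the same cluster toward the end of the long arm, and ZNF85 in the cluster next to the centromere. All counting intervals lay below 0, for genes that were picked by the same ranking.

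Among the highest members after ZNF146, the siRNAs did not always pull the same way. ZNF358 was at 21.8 RPKM in si-Control, 18.3 RPKM in si-RBCK1 #1 and 23.0 RPKM in si-RBCK1 #2 (log2 ratios -0.24 and 0.07). ZNF787 was at 13.6 RPKM, 18.1 RPKM and 20.4 RPKM (0.39 and 0.56). ZNF428, with a single finger, was at 12.5 RPKM, 12.4 RPKM and 17.4 RPKM (-0.01 and 0.44). For ZNF581 the levels were 12.2 RPKM, 14.2 RPKM and 13.7 RPKM (0.20 and 0.16).

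The siRNAs differed most for ZNF584, ZNF865 and ZNF181. ZNF584 was at 4.09 RPKM in si-Control and 4.10 RPKM in si-RBCK1 #2, and at 7.36 RPKM in si-RBCK1 #1. The reverse was seen for ZNF865, at 4.51 RPKM in si-Control, 4.17 RPKM in si-RBCK1 #1 and 7.36 RPKM in si-RBCK1 #2. ZNF181 was higher in si-RBCK1 #1 (3.18 RPKM) and lower in si-RBCK1 #2 (1.72 RPKM) than in si-Control (2.30 RPKM). The difference of the log2 ratios (si-RBCK1 #2 minus si-RBCK1 #1) was -0.71, 0.69 and -0.62 in that order.

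Members with a known role in p53, BRCA1 or cytokine signaling were low, and none of those given here differed 1.5-fold in either library on the log2(RPKM + 1) scale. Among them, ZNF420 (Apak), a KRAB protein that binds p53 and represses its apoptotic targets, was under the limit at 0.81 RPKM, 0.74 RPKM and 0.48 RPKM in the order si-Control, si-RBCK1 #1, si-RBCK1 #2. ZNF350 (ZBRK1), which works with BRCA1 to repress GADD45A, was at 4.003 RPKM, 2.75 RPKM and 3.24 RPKM (log2 ratios -0.42 and -0.24), and both depleted libraries were below the control. ZNF675 (TIZ), an inhibitor of TRAF6 signaling, was at 2.89 RPKM, 2.07 RPKM and 3.19 RPKM (-0.34 and 0.11). ZNF382, a repressor described as a tumor suppressor, was at 2.20 RPKM, 1.75 RPKM and 2.15 RPKM (-0.22 and -0.02), and ZNF224, known as a repressor of the aldolase A gene, was at 1.59 RPKM, 1.06 RPKM and 1.32 RPKM (-0.33 and -0.15). The imprinted gene ZNF331 was under the limit, at 0.76 RPKM, 0.63 RPKM and 0.91 RPKM.

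The members that act on repeats or on the cluster genes themselves were similar in si-RBCK1 #2 and si-Control. ZNF274, which binds the finger-coding ends of other ZNF genes together with SETDB1, was at 11.4 RPKM in si-Control, 10.6 RPKM in si-RBCK1 #1 and 11.5 RPKM in si-RBCK1 #2 (log2 ratios -0.09 and 0.01, with counting intervals on reads that include 0). ZNF91, a repressor of SVA elements, was at 2.67 RPKM, 1.72 RPKM and 2.54 RPKM (-0.43 and -0.05). ZNF93, a repressor of LINE-1 elements, was at 2.81 RPKM, 3.41 RPKM and 2.62 RPKM (0.21 and -0.07).

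The 7 clusters with at least 10 expressed members were not alike. Clusters were cut where the starts of neighbouring members lie more than 1 Mb apart, which gave 16, and these 7 hold 148 of the 159 members. In the cluster from ZNF653 to ZNF791, 14 members passed, with medians of 0.26 and 0.12, and 11 of them were higher in si-RBCK1 #1. In the cluster from ZNF575 to ZNF296 the 19 members had medians of 0.23 and 0.14. The 46 members from ZNF628 to ZNF446, at the end of the long arm, had medians of 0.22 and 0.12. These last medians depend on the split: they were 0.18 and 0.0058 with clusters split at 0.5 Mb, and 0.07 and 0.07 at 2 Mb, where this cluster joins those before it.

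The other clusters stood lower in si-RBCK1 #1. The 15 members from ZNF101 to ZNF254, beside the centromere, had medians of -0.15 in si-RBCK1 #1 and 0.09 in si-RBCK1 #2, with 4 and 9 of them higher. The 10 members from ZNF565 to ZNF573 had -0.08 and -0.07, the 33 members from ZNF175 to ZNF331 had -0.05 and 0.07, and the 11 members from ZNF557 to ZNF846 had 0.11 and 0.08. Runs of members on the same side in both libraries were read with members under the level limit skipped. The longest were 5 genes long, lower from ZNF772 to ZNF550 (medians -0.27 and -0.31) and higher from ZNF544 to ZNF446 (0.35 and 0.33). Whether runs of this length would arise by chance was not tested. The higher run includes ZNF584, whose ratio in si-RBCK1 #2 was only 0.0025 and fell below 0 with equal medians or equal totals.

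Members without a KRAB pattern stood higher in si-RBCK1 #2 than those with it. The 134 KRAB members that passed had medians of 0.05 and 0.05. The 25 members without it had 0.16 in si-RBCK1 #1 and 0.39 in si-RBCK1 #2, and 0.18 and 0.40 when ZNF146 is left out. At least 1.5-fold higher in si-RBCK1 #2 were 7 of these 25 (28%) and 2 of the 134 (1.49%), beside 11.1% of all protein-coding genes and 24.2% of the other genes whose transcripts are richest in GC. In si-RBCK1 #1 the shares were 1 of 25 and 8 of 134 (5.97%), beside 11.7% of all protein-coding genes. The 7 were ZNF526, ZNF574 and ZNF865, given above, with ZNF444, ZNF784, ZNF414 and ZNF628, which are named after their values were seen. ZNF444 was at 8.49 RPKM, 11.2 RPKM and 16.5 RPKM in the order si-Control, si-RBCK1 #1, si-RBCK1 #2 (log2 ratios 0.36 and 0.88).

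Base composition moved with the same split. The longest open reading frame held a median of 41.8% GC in the KRAB members that passed and 64.9% in those without, and over all other protein-coding genes the median log2 ratio was higher in GC-rich than in GC-poor transcripts, with a climb at each step in si-RBCK1 #2 and up to the next to last group in si-RBCK1 #1. These genes were split into 5 groups of equal size by GC content, and from the lowest to the highest group they had medians of -0.19, -0.05, 0.07, 0.16 and 0.14 in si-RBCK1 #1 and -0.19, -0.08, 0.04, 0.18 and 0.29 in si-RBCK1 #2. The 18 members in the top group had 0.29 and 0.43, and the 52 members in the lowest group had -0.08 and -0.01. With both level band and GC group held, the median difference of members from other genes was 0.16 in si-RBCK1 #1 and 0.14 in si-RBCK1 #2. For KRAB members this difference was 0.16 and 0.14, and for those without the pattern 0.13 and 0.21, while with the level band alone the differences were 0.11 and 0.06 for KRAB members and 0.21 and 0.34 for the others. In si-RBCK1 #2 the medians of both kinds thus lay closer to each other once GC content was held.

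Over all levels, the medians of ZNF genes elsewhere in the genome and of other genes of chromosome 19 bracket those of the members. The 184 ZNF genes of other chromosomes that passed had medians of 0.00 and 0.02, and the other 577 protein-coding genes of chromosome 19 had 0.18 and 0.27. The latter were at a higher level than the members, with a median of 14.8 RPKM against 2.26 RPKM. Within 1 to 8 RPKM, the other chromosome 19 genes had 0.067 and 0.23, the members 0.066 and 0.07, and the ZNF genes elsewhere 0.003 and 0.015. In this range the medians of the members and of the other chromosome 19 genes were thus alike in si-RBCK1 #1. The other chromosome 19 genes had a wider spread there, with an SD of 0.49 against 0.32. Their median level was also higher, 3.61 RPKM against 2.16 RPKM. Of the 15 zinc finger genes of chromosome 19 listed under other names (ZSCAN, ZFP and the like), 14 were in the table and 3 passed, with medians of -0.21 and -0.16.

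The partners of KRAB proteins and other heterochromatin genes went in both directions, and more of them were higher than lower. All 26 co-repressor and heterochromatin genes listed passed the limit on level, with medians of 0.27 and 0.17, and 18 (69.2%) were higher in each library, beside 52.4% and 54.6% of all protein-coding genes. Their median level was 18.4 RPKM, and of other protein-coding genes of 16 RPKM or more 59.9% and 57.8% were higher. TRIM28, which binds the KRAB domain and whose gene lies on chromosome 19 beyond the last member, was at 58.5 RPKM in si-Control, 119 RPKM in si-RBCK1 #1 and 135 RPKM in si-RBCK1 #2 (log2 ratios 1.02 and 1.19). SETDB1 was at 12.6 RPKM, 15.4 RPKM and 14.2 RPKM (0.28 and 0.17). Besides TRIM28, UHRF1 (1.06 and 1.39), SUV39H1 (1.04 and 0.97) and DAXX (0.68 and 0.68) were at least 1.5-fold higher in both. This makes 4 of 26 (15.4%), beside 7.59% of all protein-coding genes and 9.52% of other genes of 16 RPKM or more, and 0 were lower in both. In single libraries, 4 of 26 (15.4%) were at least 1.5-fold higher in si-RBCK1 #1 and 7 of 26 (26.9%) in si-RBCK1 #2. The backgrounds were 11.7% and 11.1% of all protein-coding genes, and 14.3% and 12.2% of other genes of 16 RPKM or more. At least 1.5-fold lower in si-RBCK1 #2 were 0 of 26 (background 8.38%). In si-RBCK1 #1, 3 of 26 (11.5%; background 10.6%) were at least 1.5-fold lower. These were the chromatin remodeler ATRX, at 18.1 RPKM, 8.92 RPKM and 11.9 RPKM (-0.94 and -0.56), the SETDB1 partner ATF7IP (-0.65 and -0.33) and FAM208A (TASOR), a core part of the HUSH silencing complex (-0.67 and -0.11).

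Promoters of the members held an ETS core more often than promoters at large. RefSeq promoters (GRCh38.p14, from 250 bases before to 50 after the start) were found for 212 of the 243 members, and CCGGAAG, the core bound by ETS factors, stood on either strand in 95 of them (44.8%). This compares with 34.8% of ZNF genes of other chromosomes and 14.5% of 14511 protein-coding genes. Among members it was in 48.04% of those with a KRAB pattern and 27.3% of those without. CCAAT was in 52.8% against 36.3% of all, and TATAAA in 1.89% against 9.28%. GGGGCGG, the core for SP1, was in 42.9% and 42.6%.

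The members with CCGGAAG had a median of 0.00 for the log2 ratio in si-RBCK1 #1, and those without it had 0.21. With si-RBCK1 #2 the medians were 0.04 and 0.12. Over the other protein-coding genes the order was the reverse, 0.07 with the letters and 0.02 without for si-RBCK1 #1, and 0.07 and 0.05 for si-RBCK1 #2. Other letters also split the members. For CCAAT the medians were 0.17 with and 0.01 without in si-RBCK1 #1, and 0.08 and 0.08 in si-RBCK1 #2. For GGGGCGG they were 0.10 and 0.02, then 0.08 and 0.09. The part of KRAB patterns and GC content in these gaps was not tested.

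The surroundings of the ETS core are shown for members named above, as 30 bases on the strand that reads CCGGAAG (capitals), in GRCh38.p14. They show an element whose flanks differ in some genes and nearly match in others.
ZNF528, chr19:52397801-52397830, plus strand: ttcgtgcaaacCCGGAAGcggaccgcgggg
ZNF846, chr19:9768752-9768781, minus strand: gccgtgcgcaaCCGGAAGcggaagtgccag
ZNF274, chr19:58182966-58182995, minus strand: ggcgggtagggCCGGAAGtgcagggggcgg
ZNF675, chr19:23687184-23687213, plus strand: gccgccaaatcCCGGAAGccatcttgtctg
ZNF85, chr19:20923221-20923250, minus strand: cccgccacatcCCGGAAGccgccctatccg
ZNF91, chr19:23395478-23395507, plus strand: ccagccacatcCCGGAAGccgccctgtccg
ZNF431, chr19:21142004-21142033, minus strand: cccgccacatcCCGGAAGccgtcctgtccg
The last 3 belong to the cluster beside the centromere and share the 18 letters GCCACATCCCGGAAGCCG around the core, and these were searched only after the windows had been read. They stood in 6 of the 26 members of that cluster with a promoter (23.1%), in 0 of the 186 other members with one, and in 0.022% of 27305 promoters of all genes, which are the same 6. The 6 are ZNF85, ZNF91 and ZNF431, from which the letters were taken and which must hold them, and ZNF43, ZNF492 and ZNF493. The 4 of them that passed had median log2 ratios of -0.40 and 0.03.

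The members that differed most upward and downward do not hold the core in the 250 bases before their start, shown here with CCAAT (or its reverse complement) in capitals, which is present 1 time in ZNF823 and absent in ZNF146.
ZNF823, chr19:11738947-11739196, minus strand: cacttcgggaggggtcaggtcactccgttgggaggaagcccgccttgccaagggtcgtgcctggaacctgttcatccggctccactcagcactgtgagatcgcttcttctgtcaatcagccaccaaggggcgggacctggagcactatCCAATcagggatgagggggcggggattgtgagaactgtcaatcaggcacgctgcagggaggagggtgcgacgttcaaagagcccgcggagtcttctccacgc
ZNF146, chr19:36214856-36215105, plus strand: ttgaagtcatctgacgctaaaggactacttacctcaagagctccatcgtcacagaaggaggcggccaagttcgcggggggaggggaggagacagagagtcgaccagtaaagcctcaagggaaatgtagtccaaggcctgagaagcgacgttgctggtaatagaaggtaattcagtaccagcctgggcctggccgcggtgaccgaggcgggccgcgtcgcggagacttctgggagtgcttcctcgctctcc

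Each siRNA can also act on transcripts that match its guide positions 2 to 8, the seed. The guides are shown with the seed in capitals.
si-RBCK1 #1: tTGTTGATgaaggtgcacc
si-RBCK1 #2: tAGAAATCgctggtaatcc
The transcripts of 47 members hold ATCAACA, the match to the seed of si-RBCK1 #1, and had a median log2 ratio of -0.04 in that library, against 0.10 for the 112 members without it. All protein-coding genes showed a similar order, -0.04 with the match and 0.05 without. The 50 members with GATTTCT, the match to the seed of si-RBCK1 #2, had 0.06 in that library against 0.09 for the 109 without, beside -0.03 and 0.08 for all protein-coding genes. With a match to guide positions 2 to 7 in place of 2 to 8, the gap between members with and without it was -0.0066 in place of -0.14 for si-RBCK1 #1 and -0.089 in place of -0.028 for si-RBCK1 #2. Members with the match of si-RBCK1 #1 had a longer length as recovered from the RPKM values, a median of 4286 nt against 3229 nt. This is not the length of the transcripts that were searched for the match. Members with the si-RBCK1 #1 match had 0.03 in the si-RBCK1 #2 library and those without had 0.08. Members with the si-RBCK1 #2 match had -0.01 in the si-RBCK1 #1 library against 0.12 without, a wider gap than in the si-RBCK1 #2 library. Over all protein-coding genes, transcripts with a match were also poorer in GC. Their medians were 44.8% against 49.3% for si-RBCK1 #1 and 43.6% against 50.6% for si-RBCK1 #2. The part of length and GC content in these gaps was not tested.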

How the data were processed

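RNA of Caki-1 cells was sequenced with 1 library for each of 3 conditions. The submitters' processing notes name FastQC, Trimmomatic, TopHat2, HTSeq and the build hg19, with no order, and the strand setting of counting is not given in the sources used here. Per the labels, ribosomal RNA was removed and a directional kit was used, while the paper's methods name another sequencing provider. The authors deposited 1 table of RPKM values. Its columns of the authors' own comparison (fold changes and p-values) were not used.

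Log2 ratios to si-Control were computed from the deposited RPKM values with a pseudocount of 1 RPKM, for protein-coding genes whose mean reached 1 RPKM, and a limit of 1.5-fold was used. The members that were compared to genes of similar level were placed in bands at 1, 2, 4, 8 and 16 RPKM. The members and lists were chosen with earlier results of these data known. Genes named are RBCK1, members of known role, the 5 highest, the 5 largest differences in each direction by the smaller ratio of the same sign, the 3 most different between siRNAs, those nearest the level limit and co-repressor genes led by TRIM28 and SETDB1. Of the passed members, 46 overlap another gene of the table and 8 overlap one of at least 1 RPKM. Library totals were found from the steps of short RNAs, and whole reads (within 0.002 reads) were then found for 10761 of 10775 genes (99.87%). The smallest length that gave whole reads in every library was taken, so reads and length can both be too low by a shared factor. Not every marker listed is reported here. No count test was run with 1 library per condition. Fingers and GC content were read from the longest open reading frame or transcript of GENCODE v29 (GRCh38). A KRAB pattern was counted if the longest open reading frame of any transcript of the gene held it. The frame used for fingers and GC content can thus lack it. Promoters were read from RefSeq (GRCh38.p14) and guides from the study's siRNA list. Alternatives were other pseudocounts, limits, filters, scalings and level bands with 5 GC groups (chosen after seeing the data). The steps were tested on simulated data, where recovery was checked for reads per length and not for the reads themselves. The tools were scipy 1.17.1, pandas 2.3.3, Biopython 1.88, matplotlib 3.10.9 and numpy 2.4.6 in Python 3.11.15.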

Additional observations from a re-analysis of the deposited data

How the results depend on the processing

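No paired analysis was possible because there was a single library per group. The counts of members at least 1.5-fold different depended on the pseudocount and the limit. For si-RBCK1 #1 (13 members), si-RBCK1 #2 (10) and both (2), they were 34, 24 and 14 with a pseudocount of 0.1 RPKM, 1, 2 and 1 with 5 RPKM, and 0, 0 and 0 at 2-fold, as these settings must move them. Scaling the libraries to equal medians gave 6 members for si-RBCK1 #2. The median difference from genes of similar level was 0.057 for si-RBCK1 #1 with a pseudocount of 5 RPKM and 0.14 for si-RBCK1 #2 with 5 GC groups held, a setting chosen after seeing the data, and the cause was not tested. Of the other summary values, 65 stayed inside limits set around the main value. For medians these limits rest on the scatter among genes, not on replicate libraries, and for counts they were 1.5-fold. They are wide, so staying inside them does not show that a value is stable. The median of the members in si-RBCK1 #1, for example, was 0.022 with no filter on low values, beside 0.060. Several cluster medians moved by over 1.5 times with the split. At 2 Mb the clusters from ZNF175 to ZNF331 and from ZNF628 to ZNF446 join, with smaller neighbours, and had medians of 0.066 (si-RBCK1 #1; -0.049 and 0.22 apart) and 0.074 (si-RBCK1 #2; 0.066 and 0.12 apart), and the median from ZNF565 to ZNF573 in si-RBCK1 #2 was -0.14. At 0.5 Mb the median from ZNF628 to ZNF446 in si-RBCK1 #2 was 0.0058 and that from ZNF557 to ZNF846 was 0.21 (si-RBCK1 #1) and 0.13 (si-RBCK1 #2). Matching guide positions 2 to 7 gave seed gaps of -0.0066 and -0.089. Near 0, the log2 ratios of ZNF584 (-0.045 and -0.024) and ZNF274 (-0.049 and -0.024) in si-RBCK1 #2 changed sign with equal medians and equal totals. The median of all protein-coding genes was 0.029 and 0.047 as deposited, 0.0070 and -0.0049 with equal medians, and -0.020 and 0.019 with equal totals. Depth limits the members, with a median of 284 control reads as a lower bound.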
